A study of Mus musculus with 9 samples.

Results

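The cytokinesis genes described here are *Anln*, *Ect2*, *Racgap1*, *Prc1*, *Cit* and *Cep55*, which were chosen by name and make up 6 of the 15184 genes in the table. They were measured in polyA+ RNA of mouse embryonic fibroblasts (MEFs), which are connective tissue cells cultured from embryos, in 9 libraries that fall into 3 groups of 3. The study asked how cells change when they carry an activation system for *Hnrnpk*, a gene for an RNA-binding protein. Cells of every group derived from wild-type MEFs and were transduced with lentiviral particles of lentiMPHv2 and lentiSAMv2, which carry the parts of the synergistic activation mediator (SAM), an inactive Cas9 with transcriptional activators that a guide RNA brings to a gene. Cells were selected with blasticidin and hygromycin. The control libraries, called Empty, are labelled Empty vector, whereas the study's methods describe the control as lentiSAMv2 with a nontargeting guide. The other 6 libraries carry the genotype label Hnrnpk_SAM and come from the lines SAM1 and SAM2. The labels do not say which guide either line carries, and their extraction protocol names empty vector and sgRNA2 cells alone. Nor do they say whether a line is a clone or a pool of transduced cells, or whether the libraries of a line came from separate cultures, so the p-values measure the spread between libraries, which may be technical.

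Values are normalized counts, that is, reads per gene divided by a factor for the depth of the library. The libraries held from 41759636 to 49026626 reads on the listed genes, and no pair of libraries of a group agreed within the sampling noise of its reads. Chi-square per gene ran from 11.5 to 13.8 in Empty, from 1.46 to 9.49 in SAM1 and from 1.54 to 2.33 in SAM2. The groups thus differ in spread, while the fits below take 1 spread per gene over all groups. *Hnrnpk*, the gene the system was aimed at, had means of 25773 ± 621 (SD, n = 3) in Empty, 23922 ± 264 (SD, n = 3) for SAM1 and 26563 ± 321 (SD, n = 3) for SAM2. It was lower than Empty in SAM1 (limma adjusted p = 0.00252) and not called in SAM2 (limma adjusted p = 0.159), so its counts do not check the labels. SAM1 and SAM2 therefore name the libraries by their labels only, and every direction below is relative to those labels. All 8 fibroblast markers were listed, and their summed normalized count ran from 626994 to 673097 in Empty, from 543757 to 546659 in SAM1 and from 698069 to 718469 in SAM2. Of the defining markers of other cell types, *Epcam*, *Krt18*, *Ptprc*, *Adgre1*, *Cd3e*, *Myod1*, *Myog*, *Sox2* and *Rbfox3* were not among the listed genes.

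Cytokinesis is the step that separates the daughter cells after the chromosomes have parted. PRC1 bundles the antiparallel microtubules of the central spindle, where RACGAP1, a subunit of centralspindlin, brings in ECT2, the exchange factor that loads the GTPase RhoA at the cell equator. RhoA drives assembly of the actomyosin ring, which anillin (ANLN) ties to septins and the membrane, citron kinase (CIT) organizes the midbody that remains after ingression, and CEP55 recruits the ESCRT machinery that cuts it. Transcripts of these genes accumulate late in the cell cycle in dividing cells.

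Many late cell cycle genes carry in their promoters a cell cycle homology region (CHR) and CCAAT boxes, so the start regions of the 6 genes were read and the stretches that hold these letters are shown. The window ran from 250 bases before to 50 bases from the start of the canonical transcript in GRCm39 with GENCODE vM39. The motifs searched on both strands were TTTGAA or TTCGAA for the CHR, CCAAT for the CCAAT box, and TTCCCGC or TTGGCGC for the E2F site. The stretches lie at chr9:22300462-22300491 on the minus strand for *Anln*, chr3:27208070-27208149 on the minus strand for *Ect2*, chr15:99549518-99549577 on the minus strand for *Racgap1*, chr7:79944147-79944206 on the plus strand for *Prc1*, chr5:115983643-115983702 on the plus strand for *Cit* and chr19:38043425-38043484 on the plus strand for *Cep55*. They are written 5′ to 3′ on the strand of the gene, with CHR and CCAAT letters of either strand in capitals.
Prc1: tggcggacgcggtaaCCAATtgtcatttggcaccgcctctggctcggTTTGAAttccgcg
Racgap1: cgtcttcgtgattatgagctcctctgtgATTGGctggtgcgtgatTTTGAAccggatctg
Ect2: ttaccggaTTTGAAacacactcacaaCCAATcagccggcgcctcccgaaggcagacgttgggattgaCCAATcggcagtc
Anln: ggcgctgaaaTTCAAAtTTTGAAcggccgt
Cit: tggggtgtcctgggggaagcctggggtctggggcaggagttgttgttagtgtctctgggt
Cep55: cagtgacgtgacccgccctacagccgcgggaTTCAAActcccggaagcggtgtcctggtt
A CHR was found in 5 of the 6 windows and in 16.1% of 14790 windows of the same length. CCAAT was found in *Prc1*, *Racgap1* and *Ect2*, 3 of the 6, against 39.1% of all windows, and these 3 held both motifs, as did 6.82% of all. An E2F site was found in *Ect2* alone of the 6, at bases 1 to 7, where it overlaps a further CCAAT at bases 4 to 8, and in 10.6% of all windows. The *Cit* window held none of these letters, and the 60 bases printed for it are those just before its start. A match of letters is a description and was not tested for binding.

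All 6 genes were higher in both lines labelled Hnrnpk_SAM than in empty vector MEFs, by 1.75-fold to 2.61-fold in SAM1 and by 2.00-fold to 2.27-fold in SAM2. In limma, a linear model with moderated variances fitted to log2(normalized count + 1) of all genes and adjusted by the Benjamini-Hochberg method, 6 of 6 passed an adjusted p-value of 0.05 upward in SAM1, where 37.3% of all genes did so, and 6 of 6 in SAM2, where 35.2% did so. In each gene the lowest of the 6 SAM libraries lay above the highest Empty library, as it did in 25.9% of all genes. Scaling each library to *Gapdh* and *Actb* moved the median of all genes from 0.0093 to -0.40 on the log2 scale in SAM1, where *Prc1* went from 0.81 to 0.40, and all 6 genes were still called higher in both lines. In either direction that scaling called 12326 of all 15184 genes in SAM1 and 10525 in SAM2. By the size factors of the table, *Gapdh* itself differed from Empty by 0.71 in SAM1 and 0.40 in SAM2, and *Actb* by 0.10 and -0.36. Bulk RNA does not tell more cells in late cell cycle from more of these transcripts per cell.

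**Figure D1:**
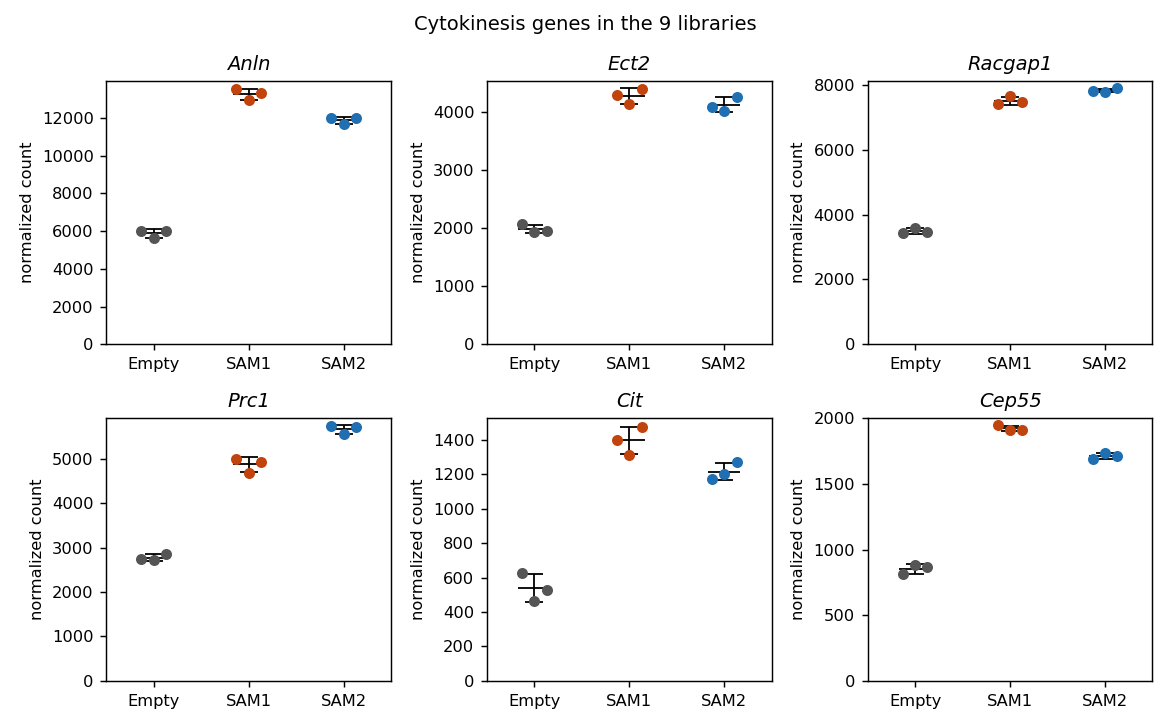
Normalized counts of the 6 cytokinesis genes (y axes from 0) in the 9 libraries (points), by group (x axis), with the mean and SD of each group (lines). In every panel the 6 SAM libraries lie above the 3 Empty libraries, and the order of SAM1 and SAM2 differs between genes.

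The central spindle is represented by *Prc1* and *Racgap1*. *Prc1*, which codes for the microtubule bundler, lies at chr7:79944168-79966011 on the plus strand. Normalized counts were 2749, 2724 and 2859 in the Empty libraries, 5007, 4691 and 4929 in SAM1 and 5732, 5551 and 5726 in SAM2. The 3 groups did not overlap, with SAM2 highest and SAM1 between. The log2 fold change of *Prc1* was 0.81 in SAM1 (standard error 0.0337, limma adjusted p = 1.14e-10) and 1.03 in SAM2 (standard error 0.0337, limma adjusted p = 1.79e-11). *Prc1* had the smallest rise of the 6 genes in SAM1, where 15.6% of all genes rose by more. The whole gene lies within *Rccd1* on the opposite strand, whose counts were 358 ± 11.3 (SD, n = 3) in Empty, 226 ± 19.1 (SD, n = 3) for SAM1 and 271 ± 36.4 (SD, n = 3) for SAM2. *Rccd1* had fewer counts than *Prc1* in every group and fell in both lines (limma adjusted p = 3.21e-05 and 0.00195). The kit kept strand, but the strand setting of the counting is not given in the sources used here.

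*Racgap1*, the GTPase-activating subunit of centralspindlin, lies at chr15:99518377-99551998 on the minus strand. Normalized counts were 3427, 3587 and 3475 in Empty, 7404, 7651 and 7469 in SAM1 and 7796, 7791 and 7894 in SAM2. The lines lay close together and far above Empty, and their libraries did not overlap. The log2 fold change was 1.10 in SAM1 (standard error 0.0283, limma adjusted p = 1.04e-12) and 1.16 in SAM2 (standard error 0.0283, limma adjusted p = 1.14e-12). In SAM2 *Racgap1* held rank 109 among all genes by adjusted p-value, the highest place of the 6. The 87 listed genes within 2 Mb of *Racgap1* had a median log2 fold change of 0.28 in SAM1 and 0.31 in SAM2, and 16 and 9 of them exceeded *Racgap1*. Their part in its rise was not tested.

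Activation of RhoA depends on *Ect2*, at chr3:27151371-27208029 on the minus strand. *Ect2* had normalized counts of 2065, 1933 and 1959 in Empty, 4293, 4137 and 4402 in SAM1 and 4093, 4019 and 4267 in SAM2. The SAM libraries lay at about the same level in both lines, whose ranges overlapped, and above Empty. Its log2 fold change was 1.11 in SAM1 (standard error 0.0376, limma adjusted p = 1.62e-11) and 1.05 in SAM2 (standard error 0.0376, limma adjusted p = 4.15e-11). None of the 9 listed genes within 2 Mb exceeded *Ect2* in either line, and their median log2 fold changes were -0.29 and -0.18.

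*Anln*, the scaffold of the contractile ring, lies at chr9:22242402-22300501 on the minus strand. Normalized counts were 6024, 5617 and 5990 in Empty, 13537, 12959 and 13330 in SAM1 and 12002, 11678 and 12002 in SAM2. SAM1 was highest, SAM2 lay below it without overlap, and Empty was lowest. The log2 fold change was 1.18 in SAM1 (standard error 0.0323, limma adjusted p = 2.09e-12) and 1.02 in SAM2 (standard error 0.0323, limma adjusted p = 1.31e-11). The lncRNA *Gm48646*, which overlaps *Anln* on the same strand over 1228 bases, had mean counts of 1.47, 15.6 and 5.34 in the 3 groups.

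*Cit*, for citron kinase, lies at chr5:115983289-116147006 on the plus strand and had the lowest level per kilobase of the 6. It had normalized counts of 624, 465 and 526 in Empty, 1399, 1313 and 1476 in SAM1 and 1174, 1202 and 1269 in SAM2. The Empty libraries of *Cit* differed more among themselves than those of any other of the 6 genes, with a coefficient of variation of 14.9% against 2.35% to 4.30%. Counting alone gives 4.75% at the lowest *Cit* read count, which was 443. The log2 fold change of *Cit* was the largest of the 6 in each line, at 1.38 in SAM1 (95% interval 1.20 to 1.57, limma adjusted p = 6.23e-09) and 1.18 in SAM2 (95% interval 0.999 to 1.37, limma adjusted p = 3.95e-08). The SAM2 interval covers the values of the other 5 genes in that line, so its place at the top in SAM2 does not stand apart from its error. None of the 55 listed genes within 2 Mb exceeded *Cit* in SAM1, and 4 did in SAM2.

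Abscission is represented by *Cep55*, the midbody adaptor, at chr19:38043395-38063182 on the plus strand. Normalized counts were 813, 884 and 864 in Empty, 1949, 1909 and 1913 in SAM1 and 1688, 1736 and 1710 in SAM2. The groups did not overlap, with SAM1 highest and SAM2 between. The log2 fold change was 1.17 in SAM1 (standard error 0.0393, limma adjusted p = 1.41e-11) and 1.003 in SAM2 (standard error 0.0393, limma adjusted p = 1.05e-10).

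With the 6 libraries labelled Hnrnpk_SAM taken as 1 group, 6 of 6 genes were called higher, as were 26.8% of all genes. The log2 fold changes ran from 0.92 for *Prc1* (95% interval 0.76 to 1.08, limma adjusted p = 5.31e-06) to 1.28 for *Cit* (95% interval 1.05 to 1.51, limma adjusted p = 6.45e-06). *Racgap1*, at 1.13, had the smallest adjusted p-value of the 6 (2.36e-08 from limma) and rank 37 among all genes. *Anln*, *Ect2* and *Cep55* lay at 1.10, 1.08 and 1.09.

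Per kilobase of the canonical transcript, the order of the normalized counts was *Racgap1*, *Anln*, *Prc1*, *Ect2*, *Cep55* and *Cit* in all 3 groups. In Empty these levels were 1192 ± 28.0 (SD, n = 3) for *Racgap1* and 1063 ± 40.8 (SD, n = 3) for *Anln*, which did not overlap. *Prc1* followed at 938 ± 24.2 (SD, n = 3) and *Ect2* at 493 ± 17.5 (SD, n = 3). *Cep55* stood at 158 ± 6.81 (SD, n = 3) and *Cit* at 56.6 ± 8.42 (SD, n = 3). No neighbours in this order overlapped between libraries in any group. Dividing by the union of all exons instead put *Anln* above *Racgap1* and *Ect2* above *Prc1* in all 3 groups, so these places depend on the length used.

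The comparison of SAM2 with SAM1 asks whether the lines share a level. The difference itself uses no Empty library, but its error comes from the fit to all libraries, Empty included. The comparisons of each line with empty vector share the same 3 Empty libraries. Between the lines limma called 3 of the 6 genes, against 60.3% of all genes in either direction. *Prc1* was higher in SAM2 by 0.22 on the log2 scale (95% interval 0.15 to 0.29, limma adjusted p = 9.82e-05). *Anln* was lower by the size factors used in the table (log2 difference -0.16, 95% interval -0.23 to -0.088, limma adjusted p = 0.000916), but at 0.23 when each library was scaled to *Gapdh* and *Actb*. *Cep55* was lower as well (log2 difference -0.17, 95% interval -0.25 to -0.083, limma adjusted p = 0.00237), but at 0.22 with that scaling. Scaling to *Gapdh* and *Actb* moved the median of all genes to 0.38 in this comparison, so that *Anln* and *Cep55* stayed below the median gene and *Prc1*, at 0.60, above it.

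The other 3 genes were not called between the lines. The log2 difference of *Ect2* was -0.052 (95% interval -0.13 to 0.030, limma adjusted p = 0.251), that of *Racgap1* was 0.060 (95% interval -0.0011 to 0.12, limma adjusted p = 0.0829) and that of *Cit* was -0.20 (95% interval -0.38 to -0.016, limma adjusted p = 0.0580). By the size factors of the table, these intervals leave room for differences of up to 0.13, 0.12 and 0.38 in size. With scaling to *Gapdh* and *Actb* all 3 were called, where the median of all genes was 0.38. *Ect2* then lay at 0.33, *Racgap1* at 0.45 and *Cit* at 0.19 (limma adjusted p = 9.04e-07, 1.29e-08 and 0.031). Quantile normalization called *Ect2* and *Cit* (limma adjusted p = 0.0129 and 0.0293). The call of *Cit* changed with the method and the libraries, and it passed 0.05 with edgeR and DESeq2 on the recovered reads (adjusted p = 0.0227 and 0.0252). It also passed without Empty replicate 1 or 2 (limma adjusted p = 0.00910 and 0.0152). Without SAM1 replicate 2, *Racgap1* and *Cit* passed (limma adjusted p = 0.0492 and 0.0344), which made 5 of 6, where 8748 of all 15184 genes were called.

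**Figure D2:**
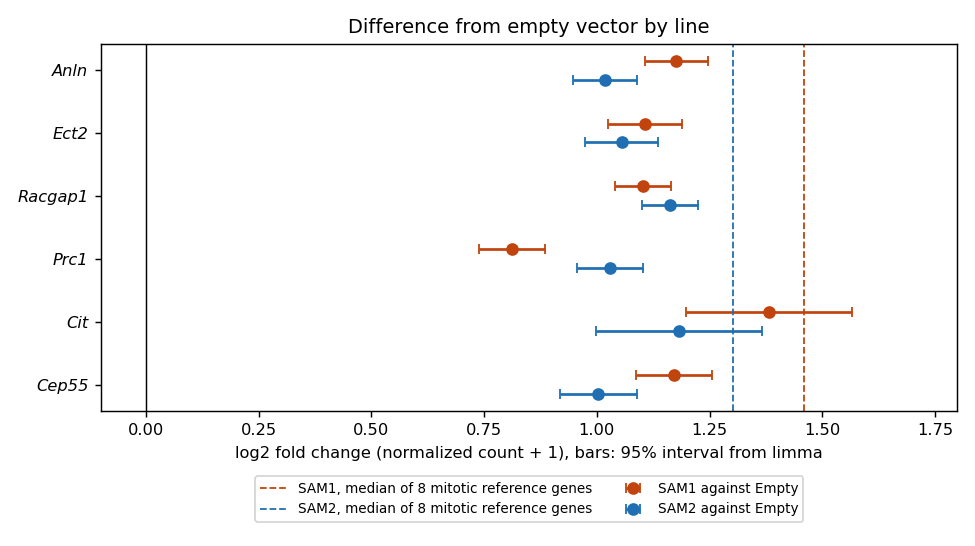
Log2 fold change against Empty (x axis, normalized count + 1) of the 6 cytokinesis genes (y axis) in SAM1 and SAM2, with 95% intervals from limma as bars. All intervals lie above 0, *Prc1* is higher in SAM2 than in SAM1 and *Anln* and *Cep55* are lower (0.23 and 0.22 higher when scaled to *Gapdh* and *Actb*), and the dashed lines mark the median of 8 mitotic reference genes, 1.46 in SAM1 and 1.30 in SAM2.

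The 6 genes were then set against 8 genes that mark dividing cells, *Mki67*, *Top2a*, *Cdk1*, *Ccnb1*, *Ccna2*, *Bub1*, *Aurka* and *Tpx2*. All 8 of these were called higher in SAM1, in SAM2 and with the lines pooled, with a median log2 fold change of 1.40 over both lines against 1.09 for the 6 cytokinesis genes and 0.0087 for all genes. Of all genes, 26.8% were called higher over both lines and 27.0% lower. *Ccna2*, the cyclin of S and G2 phase, had mean counts of 1894 ± 76.3 (SD, n = 3) in Empty, 5189 ± 54.6 (SD, n = 3) for SAM1 and 5040 ± 19.5 (SD, n = 3) for SAM2 (pooled limma adjusted p = 8.10e-09). *Ccnb1*, the cyclin of mitotic entry, and *Aurka*, a spindle pole kinase, had pooled log2 fold changes of 1.41 and 1.39 (limma adjusted p = 2.79e-07 and 4.46e-07). Of the 52 other G2/M genes distributed with Seurat, 49 were called higher and 2 lower over both lines, with a median of 1.19.

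For each cytokinesis gene the mean log2 value of the 8 reference genes was subtracted in each library, which leaves the size factors without effect. *Prc1* had ratios of 0.33, 0.31 and 0.36 in Empty, -0.13, -0.22 and -0.16 in SAM1 and 0.13, 0.10 and 0.14 in SAM2. Relative to the reference, *Prc1* was therefore lowest in SAM1 and highest in Empty, with no overlap. The mean over the 6 SAM libraries minus that over Empty was -0.35 for *Prc1* (exact permutation test over the libraries, two-sided, p = 0.0238). It was -0.19 for *Ect2*, -0.19 for *Cep55* and -0.18 for *Anln* (exact p = 0.0119 each, the smallest that 84 splits allow), and -0.14 for *Racgap1* (exact p = 0.0238). Adjusted over the 6 ratios tested, these p-values were 0.0238 for *Ect2*, *Cep55* and *Anln* and 0.0286 for *Racgap1* and *Prc1*. The test takes the 6 SAM libraries as separate units, although they come from the lines SAM1 and SAM2, so it does not measure the spread between lines. *Cit* differed by 0.0073 (exact p = 0.952), with Empty ratios from -2.24 to -1.81 that spanned all 6 SAM libraries. With each library left out in turn, these 5 differences kept their sign and ran from -0.39 to -0.32 for *Prc1*, from -0.21 to -0.16 for *Ect2*, from -0.22 to -0.16 for *Cep55*, from -0.21 to -0.15 for *Anln* and from -0.16 to -0.12 for *Racgap1*. The adjusted p in the exact test was 0.0536 or more for each without any 1 Empty library, where the smallest exact p is 0.0357, and without any 1 SAM1 library it was 0.0536 for *Prc1* and from 0.0643 to 0.0857 for *Racgap1*. The differences changed more with the reference. Against *Mki67* and *Top2a* alone they ran from -0.29 for *Prc1* to -0.081 for *Racgap1* and none passed an adjusted p of 0.05 in the exact test. Against the Seurat list they ran from -0.19 for *Prc1* to 0.019 for *Racgap1*, and again none passed.

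**Figure D3:**
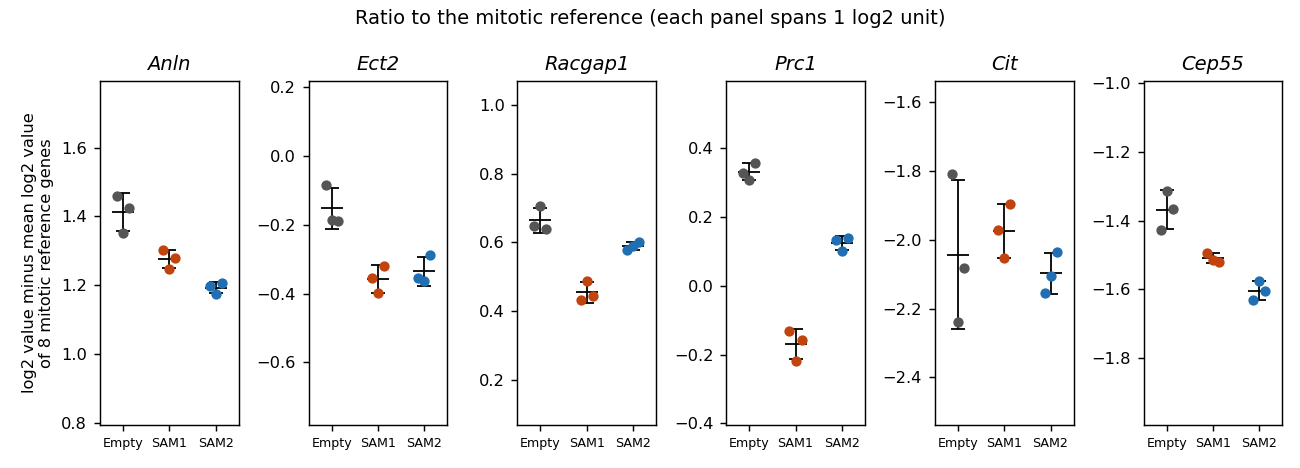
Log2 value of each cytokinesis gene minus the mean log2 value of 8 mitotic reference genes (y axes, each spanning 1 log2 unit) in the 9 libraries (points), by group (x axis), with mean and SD (lines). The ratio of *Prc1* falls from 0.33 in Empty to -0.17 in SAM1 and 0.12 in SAM2, and that of *Cit* in Empty spans both lines.

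The other genes of cytokinesis were taken from 5 lists with 70 genes, of which 68 were in the table. Over both lines 22 of them were called higher, 24 lower and 22 neither way, with a median log2 fold change of 0.0051, beside 4076 higher, 4103 lower and 7005 neither way among all genes. The counts differed from list to list. All 9 genes of the central spindle and chromosomal passenger list were called higher in each line. Of all genes, 37.3% were called higher in SAM1 and 35.2% in SAM2. The list had medians of 1.20 in SAM1 and 1.32 in SAM2. *Kif23*, the kinesin partner of RACGAP1 in centralspindlin, had mean counts of 1399 ± 61.8 (SD, n = 3) in Empty, 3284 ± 53.3 (SD, n = 3) for SAM1 and 3473 ± 74.6 (SD, n = 3) for SAM2. The pooled log2 fold change was 1.27 (limma adjusted p = 4.32e-08). *Plk1*, a kinase that acts on the central spindle, and *Incenp*, the scaffold of the passenger complex, had pooled values of 1.22 and 1.26 (limma adjusted p = 2.63e-08 and 1.94e-07).

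In the RhoA signalling list 3 of 9 genes were called higher over both lines, 3 lower and 3 neither way, against 26.8% higher and 27.0% lower of all genes, with a median of 0.034. With quantile normalization 4 were higher and 1 lower (median 0.11), and with scaling to *Gapdh* and *Actb* 3 were higher and 3 lower (median -0.18). The median of all genes over both lines moved from 0.0087 to -0.036 with the first and to -0.20 with the second. *Diaph3*, a formin that nucleates actin, and *Arhgap11a*, a GTPase-activating protein for RhoA, had log2 rises of 1.41 and 1.69 (limma adjusted p = 2.98e-08 and 3.66e-06). *Rhoa* itself had mean counts of 27710 ± 848 (SD, n = 3) in Empty, 19140 ± 143 (SD, n = 3) for SAM1 and 17580 ± 74.3 (SD, n = 3) for SAM2. The pooled log2 fold change was -0.59 (limma adjusted p = 6.66e-06). The transcript of the GTPase was therefore lower in the libraries in which that of its activator *Ect2* was higher.

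Of the contractile ring list 16 of 17 genes were in the table. Over both lines, where 26.8% of all genes were called higher and 27.0% lower, 3 of these were higher, 4 lower and 9 neither way. Their median was -0.058. After quantile normalization 5 were higher and 3 lower, with a median of 0.11 where that of all genes was -0.036. After scaling to *Gapdh* and *Actb* 1 was higher and 6 lower, with a median of -0.27 where that of all genes was -0.20. By the size factors of the table the median of all genes was 0.0087. In either direction 8132 and 6346 of all 15184 genes were called with these scalings. *Myl9*, a regulatory light chain of myosin II, rose from 1135 ± 29.5 (SD, n = 3) normalized counts in Empty to 5335 ± 184 (SD, n = 3) in SAM1 and, in SAM2, to 5091 ± 83.1 (SD, n = 3). The pooled log2 fold change was 2.20 (limma adjusted p = 3.12e-09). *Septin2* and *Septin7*, septins of the contractile ring, dropped by 0.58 and 0.41 log2 units (limma adjusted p = 0.000855 and 3.28e-06).

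The ESCRT and abscission list, which holds the machinery that CEP55 recruits, held more genes called lower than higher, with 13 of 20 called lower, 3 higher and 4 neither way over both lines, where 27.0% of all genes were called lower. Its median was -0.24, and 13 genes were called lower in each line, where 36.9% of all genes were lower in SAM1 and 35.3% in SAM2. With quantile normalization 10 were called lower over both lines and 2 higher, with a list median of -0.17 where that of all genes was -0.036. With scaling to *Gapdh* and *Actb* 12 were lower and 1 higher, and *Chmp7* was no longer called (limma adjusted p = 0.151). The list median was then -0.45, where that of all genes was -0.20. The share of all genes called lower is not given for either scaling. These scalings were applied to the lists after the data had been seen. *Mitd1*, an ESCRT-III partner in abscission, went from 1108 ± 55.9 (SD, n = 3) counts in Empty down to 574 ± 23.3 (SD, n = 3) in SAM1 and, in SAM2, to 593 ± 17.0 (SD, n = 3). The pooled log2 fold change was -0.92 (limma adjusted p = 8.83e-07). *Chmp4c*, the ESCRT-III subunit of the abscission checkpoint, and *Chmp7* had log2 rises of 0.86 and 0.50 (limma adjusted p = 1.48e-06 and 1.14e-05). Of the list of membrane traffic and other midbody genes 14 of 15 were in the table. Against 26.8% higher and 27.0% lower of all genes, 4 of this list were called higher, 4 lower and 6 neither way. There *Kif20b*, a midbody kinesin, and *Arhgap19*, a GTPase-activating protein, rose by 1.32 and 0.96 (limma adjusted p = 2.78e-07 and 3.67e-07), and *Stx2*, a syntaxin of the midbody, fell by 0.79 on the log2 scale (limma adjusted p = 2.58e-06).

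**Figure D4:**
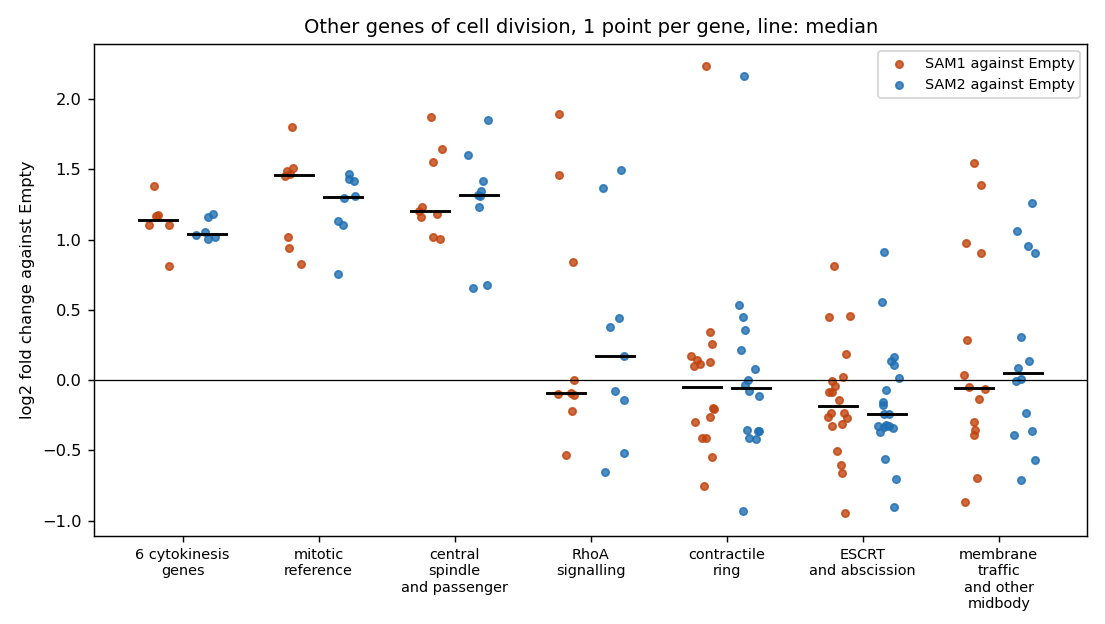
Log2 fold change against Empty (y axis) of each listed gene (points) in SAM1 and SAM2, by gene list (x axis), with the median of each list as a line. The 6 cytokinesis genes, the mitotic reference and the central spindle and passenger list lie above 0 throughout, and the ESCRT and abscission list has medians of -0.19 and -0.24.

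Across the 9 libraries, the 6 genes were compared by the root mean square difference of their log2 values after each was centred on its mean. *Anln* and *Ect2* were closest to each other at 0.053, and *Prc1* and *Cit* were farthest apart at 0.26. Over the 11340 genes with a mean count of 100 or more, the nearest were *Sulf1* and *Cntrl* for *Anln* (0.028 and 0.036) and *Thbs2* and *Slc39a14* for *Ect2* (0.018 and 0.024). For *Racgap1* they were *Reep4* and *Cxxc5* (0.036 and 0.038), and for *Prc1* they were *Klhl22* and *Lpar6* (0.051 and 0.053). *Cit* had *Gm42047* and *Kif20b* (0.061 and 0.071), and *Cep55* had *Pclaf* and *Ccnb2* (0.037 and 0.041). *Anln* and *Ect2* thus each had at least 1 gene outside the 6 that lay closer to them than they lay to each other. The nearest gene was sought among 11340 and the nearest member among the 6 alone, so this does not set the members apart.

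Some markers of other cell types moved with the same groups. The 2 listed neural markers, *Nes* and *Tubb3*, of 4 in that list, were called higher in both lines, where 37.3% of all genes were higher in SAM1 and 35.2% in SAM2. Their sum ran from 2126 to 2287 in Empty, from 8858 to 9048 in SAM1 and from 8211 to 8414 in SAM2. The 3 listed epithelial markers of 5 summed to 1901 to 2045 in Empty, 3529 to 3963 in SAM1 and 2622 to 2711 in SAM2, mostly from *Krt19*, with *Epcam* not listed. The 4 endothelial markers summed to 301 to 357 in Empty, 4613 to 4988 in SAM1 and 638 to 689 in SAM2, mostly from *Kdr*, which alone of the 4 was called higher in both lines. *Pecam1* was called higher in SAM1 alone (log2 fold change 1.14, limma adjusted p = 0.000907). *Tek* was called higher in SAM2 alone (log2 fold change 0.89, limma adjusted p = 0.000894). *Cdh5* was lower in SAM2 (log2 fold change -0.63, limma adjusted p = 0.00830). The leukocyte marker *Cd68*, listed alone of 5, ran from 315 to 416 in Empty, from 512 to 541 in SAM1 and from 543 to 583 in SAM2. The muscle marker *Des*, listed alone of 3, ran from 44.4 to 83.0, from 90.8 to 110.6 and from 223 to 245. Among fibroblast markers, *Thy1* and *Pdgfra* fell by 0.48 and 0.71 on the log2 scale over both lines and *Pdgfrb* rose by 0.74 (limma adjusted p = 0.00616, 4.11e-05 and 0.000677). The part of these changes in the levels of the cytokinesis genes was not tested.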

How the data were processed

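RNA-Seq of polyA+ RNA from 9 libraries was used, with groups and replicate numbers taken from the labels. Before they deposited the table, the authors checked reads with FastQC 0.11.0, aligned pairs of 43 bases with TopHat2 and Bowtie2 (3 mismatches, 20 multiple hits), counted them per gene with HTSeq on GRCm39 and GENCODE annotation, and divided by DESeq2 size factors. The deposited values are a signal in units of normalized counts, for 15184 genes that all passed their filter (above 10 in 30% of samples). The strand setting of the counting is not given in the sources used here. In each library 100% of values were an integer number of read steps, to within 0.001, which gave back the reads. Intervals for counting cover counting error only.

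From these values, limma 3.58.1 (empirical Bayes with trend, R 4.3.3) was fitted to log2(value + 1), a scale that understates changes of low genes, with the 3 groups in 1 fit and with both lines as 1 group. Two-sided p-values received Benjamini-Hochberg adjustment across all 15184 genes, and the threshold was 0.05. Ratios to 8 mitotic genes were tested by exact permutation over libraries. Alternatives were another pseudocount (5), a filter of 10 in all 9 libraries, quantile normalization, scaling to *Gapdh* and *Actb*, a replicate block, edgeR 4.0.16 and DESeq2 1.42.0 on the recovered reads, other fits and references, and each library left out. The fits were tested on simulated data. Genes named are the 6, the 3 with the smallest adjusted p among those called in each other list, the 2 nearest in pattern to each, and overlapping genes or scaling genes where a result turns on them. The members and lists were chosen with earlier results of these data known. Coordinates are from GENCODE vM39, in which 14791 gene names were found once. Sequences were read from GRCm39. The G2/M list came from Seurat 5.3.0. A marker gene is not reported here.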

Additional observations from a re-analysis of the deposited data

Results flagged for a closer look

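The effect of the label Hnrnpk_SAM against empty vector differed between the lines in 3 of the 6 genes, by a test of the difference itself, where 60.3% of all genes were called. For *Prc1* the log2 fold change in SAM2 exceeded that in SAM1 by 0.22 (adjusted p = 9.82e-05 from limma), with all 3 SAM2 libraries above all 3 SAM1 libraries. For *Anln* the difference was -0.16 (adjusted p = 0.000916 from limma) and for *Cep55* it was -0.17 (adjusted p = 0.00237 from limma), with all 3 SAM2 libraries below all 3 SAM1 libraries in each. The libraries of the lines did not overlap in *Racgap1* and *Cit* either, which were not called. The share of all genes that separate in this way is not given, so it does not mark out the called genes. The values of *Anln* and *Cep55* change sign when the libraries are scaled to *Gapdh* and *Actb*. The lines are 2 in number, and what sets them apart was not tested.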

How the results depend on the processing

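All 6 genes were called higher in SAM1, in SAM2 and with both lines pooled under every alternative run, including each library left out (6 in each). Many other genes were called in these runs. Of 15184 genes (13171 with the stricter filter), from 6346 to 12326 were called in either direction. Both extremes came with scaling to *Gapdh* and *Actb*, over both lines and in SAM1. Between the lines the count of 3 rose to 5 with quantile normalization and to 6 with scaling to *Gapdh* and *Actb*, and ran from 3 to 5 with each library left out. Of all 15184 genes, 9162 were called in that comparison, and from 8235 to 9492 with each library left out. Quantile normalization called 8995 of them and scaling to *Gapdh* and *Actb* 11767. With the last scaling the differences reversed to 0.23 for *Anln*, 0.33 for *Ect2*, 0.19 for *Cit* and 0.22 for *Cep55*, where the median of all genes was 0.38. By the size factors of the table, *Gapdh* and *Actb* themselves differed between the lines by -0.31 and -0.46 on the log2 scale (limma adjusted p = 1.74e-05 and 2.45e-07). Scaling to these genes moves all genes by nearly the same amount. What sets *Gapdh* and *Actb* apart between the lines was not tested.

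With the replicate block, *Cit* between the lines passed (adjusted p = 0.0148 from limma), which made 4 of 6, and no other call of the 6 genes changed. With the block, 9812 of all 15184 genes were called between the lines. Deviations of libraries with the same number correlated with a mean r of 0.053 (0.0024 to 0.12 over 9 pairs) and those with different numbers of -0.027, and 8 of 9 libraries were closest to their own number. Deviations were centred within each group, so the mean for different numbers follows from that for the same number. Since not every pair exceeded 0.1, the numbers were not taken as pairs. Whether libraries of the same number share an origin was not tested.

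Against *Mki67* and *Top2a* alone, the ratios of *Anln*, *Ect2*, *Racgap1*, *Prc1* and *Cep55* were -0.12, -0.13, -0.081, -0.29 and -0.13, and against the Seurat list -0.016, -0.032, 0.019, -0.19 and -0.026, with no exact test passing an adjusted p of 0.05. With each library left out they ran from -0.21 to -0.15 for *Anln*, from -0.21 to -0.16 for *Ect2*, from -0.16 to -0.12 for *Racgap1*, from -0.39 to -0.32 for *Prc1*, from -0.22 to -0.16 for *Cep55* and from -0.090 to 0.12 for *Cit*. The ratio of *Cit* turned negative without Empty replicate 2 (-0.090), Empty replicate 3 (-0.013), SAM1 replicate 1 (-0.0056) or SAM1 replicate 3 (-0.021). With 2 Empty libraries the smallest exact p is 0.0357, so few adjusted p-values can pass there. *Cit* had the fewest reads of the 6, with 443 in its lowest library, where counting alone gives 4.75%. The coefficient of variation of its Empty libraries was 14.9%, and its source was not tested.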
